A study of Mus musculus with 27 samples.

Results

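The genes described here build the entry route into the endoplasmic reticulum (ER) and attach sugars and glycolipid anchors to the proteins that pass through it. They were chosen by name from a list of 60 genes, and 59 of them had a value of 10 or more in at least 3 of the 27 liver libraries, as did 15932 of the 45706 genes in the table. The list holds 5 genes of the Sec61 translocon, 4 of the TRAP complex, 8 of the signal recognition particle and its receptor, 5 of signal peptidase, 7 of oligosaccharyltransferase, 13 of lipid-linked oligosaccharide assembly, 4 of glycan trimming, 8 of glycosylphosphatidylinositol (GPI) anchor synthesis, 5 of GPI transamidase and 1 Golgi galactosyltransferase. Srp54a, a subunit of the signal recognition particle, did not meet the minimum: it was at 0 to 2 in the 27 libraries, and 75.2% of the 50-base stretches of its transcripts also occur in Srp54b or Srp54c, so reads of these genes cannot be told apart with certainty.

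The livers came from wild-type mice whose strain label reads C57/BLN6, and every mouse had been fasted for 16 h. The 9 groups of 3 libraries are fasted mice, mice refed for 30, 60, 120 or 240 min, and mice given caged food for the same times, a condition in which food could be perceived and not eaten. The values are normalised read counts per gene from polyadenylated RNA, and the series text calls the replicates biological. In such bulk RNA, fewer cells of a type and less RNA per cell cannot be told apart.

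Secreted and membrane proteins make up a large part of what a hepatocyte synthesises, and most plasma proteins apart from albumin carry N-linked glycans. A signal peptide leaving the ribosome is bound by the signal recognition particle, which docks at its receptor on the ER. The chain then threads through the Sec61 channel, signal peptidase removes the signal peptide, and oligosaccharyltransferase transfers a preassembled glycan from the lipid dolichol onto asparagine. GPI transamidase exchanges a signal at the end of some proteins for a glycolipid anchor.

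Of the 240 min libraries, 2 carry labels that disagree. The library titled refed 240 min replicate 3 has a treatment label naming caged food, and the library titled caged food 240 min replicate 1 has one naming refeeding. Libraries were grouped by title. On a score over the 200 genes that best separated refed from caged food livers at 120 min (members left out, log2 values centred over the 6 libraries of 240 min and averaged so that refed-like is positive), the library titled refed scored 0.499 beside 0.769 and 0.564 in its group. The library titled caged scored -0.639 beside -0.606 and -0.587.

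The total per library was 40654573 to 50037562 normalised read counts, with 19790 to 21068 genes above 0, and an estimated 25500000 to 52500000 assigned reads (median 46700000). The 9 hepatocyte markers found were high in all libraries (albumin, 2293389 to 4761810). Transcripts of pancreatic enzymes were present in refed 30 min replicate 1, caged food 30 min replicate 2, refed 120 min replicate 1 and refed 240 min replicate 1, by the median of 15 acinar markers, of which 1 or 2 were at 0 there and 7 to 11 in the fasted libraries. The summed level was 7204, 761, 488 and 497 in these 4 libraries, against 356 to 417 in the fasted ones. By the sum the refed 120 and 240 min libraries did not stand apart, since caged food 60 min replicate 3 was at 551 and refed 120 min replicate 2 at 493. Caged food 30 min replicate 1, 60 min replicate 2 and 120 min replicate 3 stood apart on the second principal component.

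Upstream sequences are shown for Alg12, Ssr1 and Ssr3, which rose after refeeding and whose letters hold elements known to be bound by ER stress factors. That of Sec61b is shown because it shares a start region with Alg2. The ER stress element reads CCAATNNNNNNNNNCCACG, and GCCACGT is the core bound by XBP1. In the following bases, from RefSeq on GRCm38.p6 and written along each gene's own strand, capitals mark these motifs. Alg12 (chr15:88819449-88819568, minus strand) carried the ER stress element 220 to 202 bases before its start, Ssr1 (chr13:37994218-37994328, minus strand) carried GCCACGT at 74 to 68 and at 27 to 21 bases before the start, and Ssr3 (chr3:65392682-65392801, minus strand) carried it at 191 to 185.
Alg12: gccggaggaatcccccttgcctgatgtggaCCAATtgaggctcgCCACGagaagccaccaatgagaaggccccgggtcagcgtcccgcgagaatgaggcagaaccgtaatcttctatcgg
Ssr1: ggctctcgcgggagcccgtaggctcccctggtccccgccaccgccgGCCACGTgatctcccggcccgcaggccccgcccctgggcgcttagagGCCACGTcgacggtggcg
Ssr3: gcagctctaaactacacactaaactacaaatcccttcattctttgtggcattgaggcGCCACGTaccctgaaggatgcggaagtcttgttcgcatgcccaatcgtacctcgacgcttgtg

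The 250 bases before the start were read on both strands for 48 of the 60 members, those with a RefSeq promoter entry, and for 32851 promoters in all. The ER stress element was found in 1 of 48 members, Alg12, and in 0.113% of all promoters. GCCACGT stood in 7 members (Alg6, Pigb, Sec63, Spcs1, Srprb, Ssr1 and Ssr3), which is 14.6% against 2.02% of all promoters. It was held by 4 of the 23 matched members that were higher at 240 min of refeeding than in fasted livers and by 3 of the other 25. Of these 7, only Ssr1 and Ssr3 are printed above, and both were called higher. Alg6, Pigb and Spcs1 were not called against fasted livers at any refed time. TGACGTG, a related core, was held by 3 members (6.25%) and by 1.65% of all promoters, and the second ER stress element, which reads ATTGG, any base and CCACG, by 0 members and 0.0304% of all promoters. The short box CCAAT was in 41.7% of members and 33.8% of promoters, and CCACG, which lies within GCCACGT and both ER stress elements, in 43.8% and 28.3%. A member was counted if any of its promoter entries held the motif, while the share of all promoters counts each entry singly. The percentages of members and of promoters are therefore not in like units, and a member with several entries has more chances. These matches are letters in a window and not measured binding.

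Alg2 and Sec61b lie head to head on chromosome 4, with annotated starts 325 bases apart at 47474333 and 47474658. No other members lie head to head with starts within 1 kb of each other, and overlapping starts on opposite strands were not searched. The 247 bases next to Sec61b (chr4:47474411-47474657, plus strand) held 0 of the 6 motifs on either strand. This window also takes in part of the bases upstream of Alg2, and those between the Alg2 start and 47474411 were not read.
Sec61b: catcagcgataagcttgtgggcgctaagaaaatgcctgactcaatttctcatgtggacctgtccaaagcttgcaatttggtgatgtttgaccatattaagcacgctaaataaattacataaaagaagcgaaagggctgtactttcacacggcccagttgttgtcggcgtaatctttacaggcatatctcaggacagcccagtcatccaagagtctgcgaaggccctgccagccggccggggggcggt

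In fasted liver, the members spanned a wide range of levels per kilobase of exon. Srpr (the membrane receptor's alpha subunit) was highest at 2249 normalised read counts per kb, followed by Ganab at 2169, Ssr3 at 1814, Rpn2 at 1508 and Ssr2 at 1466. Sec61g, at 4.60 per kb, and Pigh, at 39.2, were the lowest. Exonic length unites all annotated transcripts of a gene, so these levels rank genes coarsely.

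After refeeding, a growing number of members was higher than in fasted livers. At 30 min of refeeding 0 members were called (adjusted p under 0.05 over all genes tested, limma), when 1.63% of all genes were called and 1.31% called higher. An unadjusted p under 0.05 was seen in 5 members, for which the share of all genes is not given here. At 60 min 7 members were higher than in fasted livers and 0 lower, with 7.26% of all genes called higher and 3.75% lower. At 120 min 20 members were higher and 0 lower (33.9% of members, against 7.95% of all genes called higher and 6.13% lower). The median log2 fold change was 0.21 over the 59 members and -0.000508 over all genes. At 240 min 32 were higher and 1 lower (54.2% of members called higher, against 12.9% of all genes higher and 11.4% lower), with a median of 0.29. By role, those higher at 240 min were 4 of 5 translocon genes, 4 of 4 of TRAP, 6 of 7 of the signal recognition particle and its receptor, 4 of 5 of signal peptidase and 5 of 7 of oligosaccharyltransferase. They were also 4 of 13 genes of lipid-linked oligosaccharide assembly, 2 of 4 of glycan trimming, 2 of 8 of GPI synthesis, 0 of 5 of GPI transamidase and B4galt1. The plot of shares called higher shows these percentages beside those of all genes. Without the 2 libraries of conflicting label 33 members were called at 240 min, when 3281 of 15863 genes were. Grouped by the treatment label 0 members were called, as were 0 of all 15932 genes, so that 0 is not particular to the members.

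**Figure D1:**
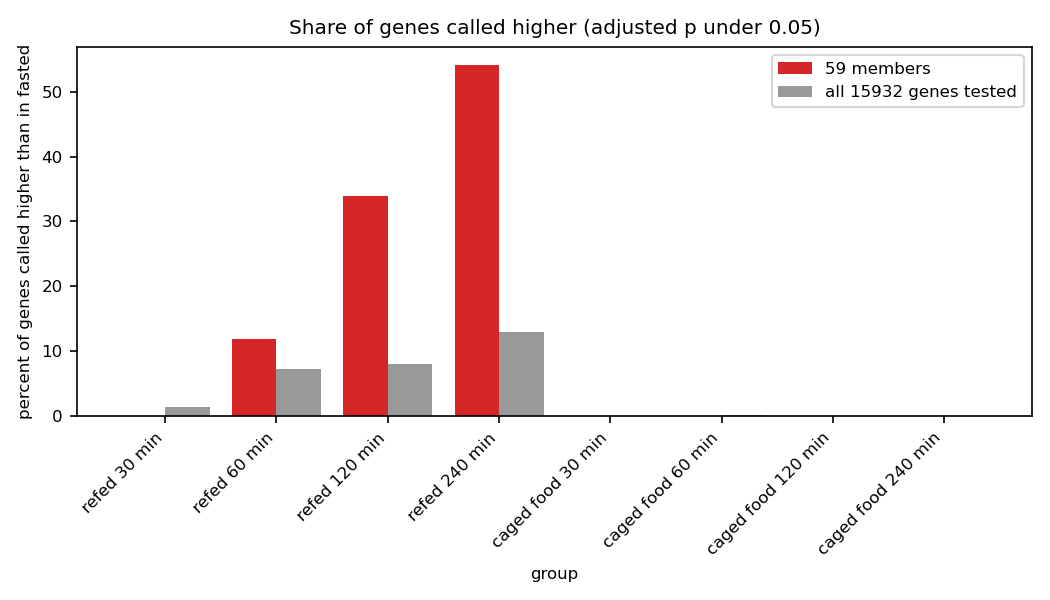
Percent of the 59 members (red) and of all 15932 genes tested (grey) called higher than in fasted liver at an adjusted p under 0.05, for the 4 refed and 4 caged food groups. The red bars stand at 0, 11.9, 33.9 and 54.2% over the refed times and at 0 for every caged food time, and the grey bars of the caged food groups are at most 0.138%.

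The members followed different courses. Over the 4 refed times, 27 members were higher than in fasted livers at no time, 12 at 1 time, 13 at 2 and 7 at 3. The log2 fold change was highest at 240 min in 42 members, at 120 min in 7, at 60 min in 4 and at 30 min in 6. The like counts over all genes are not given here, so these courses are not read as particular to the members. The heat map of the members by role shows the rise over 120 and 240 min in the upper 5 roles and single strong genes below them.

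**Figure D2:**
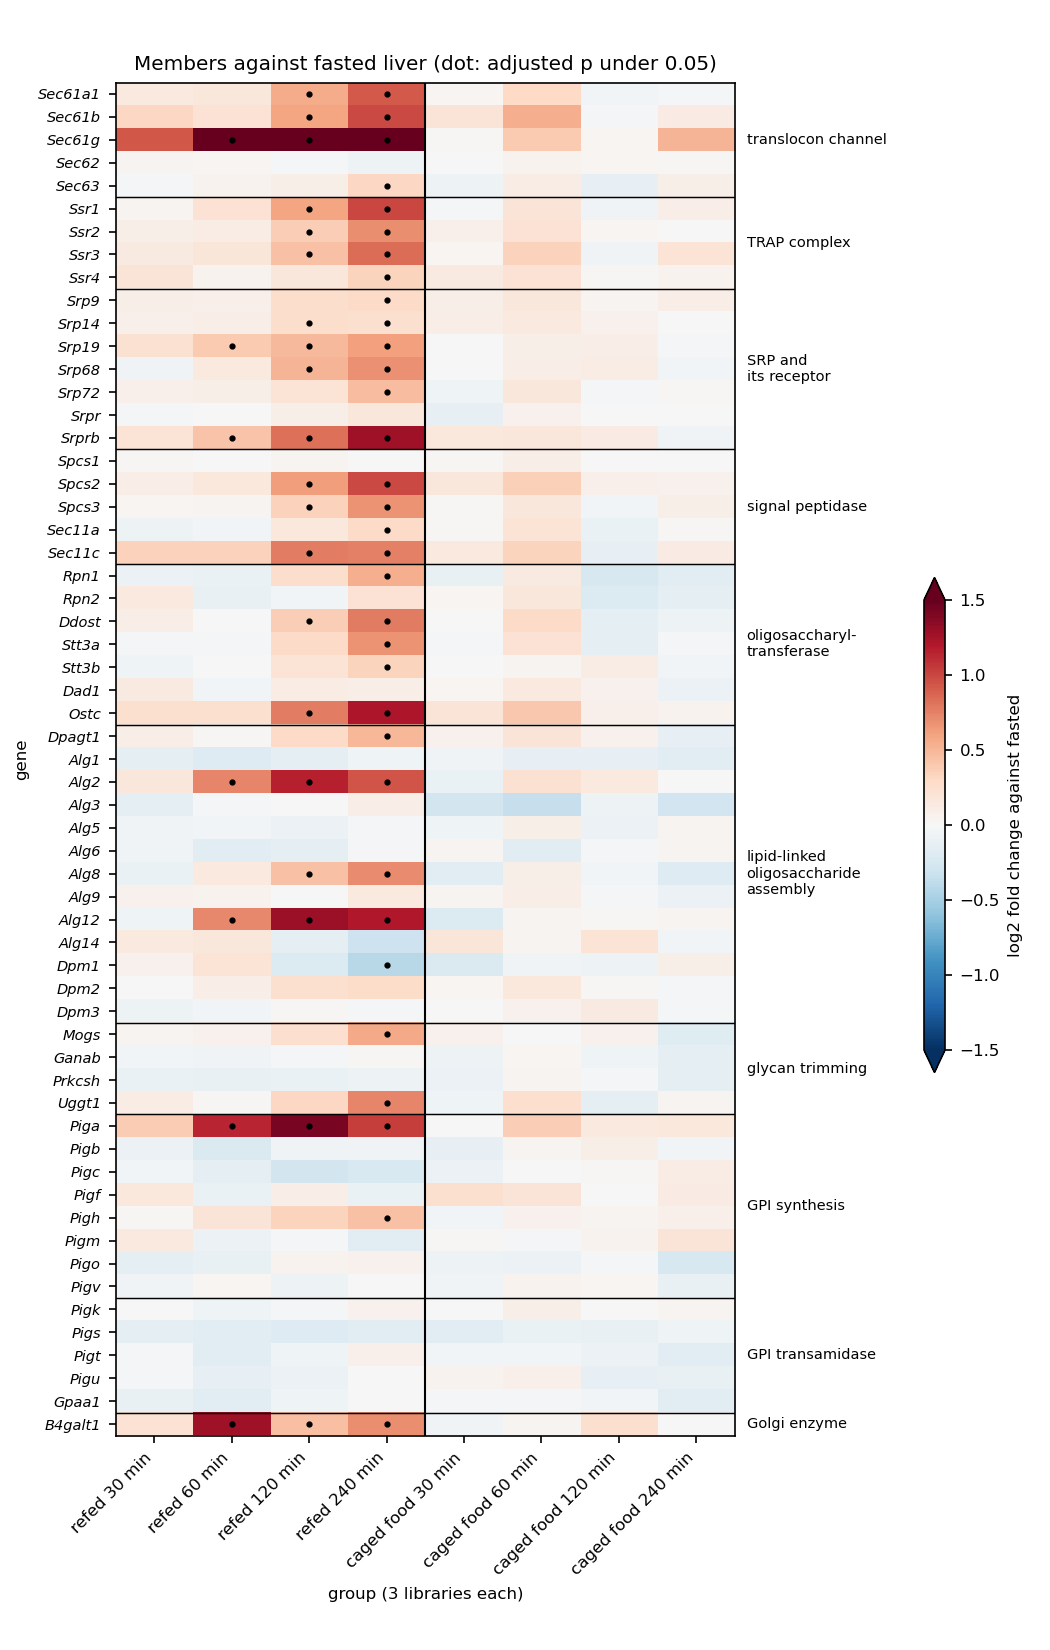
Log2 fold change against fasted liver (colour, clipped at 1.5 in either direction) of the 59 members (rows, by role) in the 4 refed and 4 caged food groups (columns, 3 libraries each). A dot marks an adjusted p under 0.05: 32 members have a dot for higher at refed 240 min, Dpm1 has one for lower, and the caged food columns have none.

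Of the translocon genes, 3 of 5 rose by 120 min and 4 of 5 by 240 min. Sec61a1 (ENSMUSG00000030082, chr6:88503579-88518905, minus strand), the pore subunit, was at 6064, 6359 and 6357 normalised read counts in the fasted livers. It was at 7236, 6903 and 6955 after 60 min of refeeding, at 8621, 10185 and 8835 after 120 min and at 12089, 14645 and 9381 after 240 min. All refed libraries from 60 min on lay above the 3 fasted ones, and the lowest at 240 min was the library of conflicting label. The log2 fold change against fasted was 0.55 ± 0.12 (SE, n = 3 per group) at 120 min (adjusted p = 0.0032) and 0.92 ± 0.12 at 240 min (adjusted p = 8.82e-06), or 1.09 without the libraries of conflicting label. In the caged food livers Sec61a1 was at 5968 to 6179 at 120 min and 5972 to 6405 at 240 min.

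Sec61b, the beta subunit, was 0.59 ± 0.16 higher on the log2 scale at 120 min (adjusted p = 0.0147) and 0.99 ± 0.16 at 240 min (adjusted p = 8.42e-05). Part of its sequence (41.0% of 50-base stretches) recurs in 3 other annotated genes. Sec63, which couples the channel to the lumenal chaperone BiP, was 0.31 ± 0.08 higher at 240 min (adjusted p = 0.00394). Sec62, its partner in post-translational entry, was 5914 in fasted and 5631 in refed 240 min livers, with a log2 fold change of -0.07 (95% interval -0.23 to 0.08).

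Sec61g, the small gamma subunit, was at 17, 13 and 4 in the fasted livers and at 37, 30 and 33 after 60 min of refeeding. It was at 32, 46 and 20 after 120 min and at 49, 31 and 27 after 240 min. The refed libraries from 60 min on lay above the fasted ones, and the log2 fold change was 1.66 ± 0.41 at 60 min (adjusted p = 0.00938). One read was worth 0.775 to 1.69 normalised read counts, so these are few reads, and 20.5% of its stretches recur in 5 other genes. The calls at 60 and 120 min were lost without fasted replicate 3, where the value was 4 (log2 fold changes 1.11 and 1.01, adjusted p = 0.097 and 0.11), and that at 120 min also without refed 120 min replicate 2 (1.29, adjusted p = 0.08). At 240 min the log2 fold change was 1.72 ± 0.41 (adjusted p = 0.00369) and 1.89 without the libraries of conflicting label, and the call was lost without the libraries with pancreatic transcripts (1.47, adjusted p = 0.0503).

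The TRAP complex, which sits beside the channel and helps certain signal peptides open it, rose as a whole: 3 of 4 genes by 120 min and 4 of 4 by 240 min. Ssr1, the alpha subunit (ENSMUSG00000021427, chr13:37966605-37994217, minus strand), whose upstream bases hold GCCACGT at 2 places, was at 3646, 3723 and 3798 in fasted livers. It reached 4994, 6526 and 5371 at 120 min of refeeding and 7729, 8173 and 6494 at 240 min. The groups did not overlap, and the log2 fold change grew from 0.59 ± 0.10 (adjusted p = 0.000188) to 1.0 ± 0.10 (adjusted p = 1.22e-07), or 1.09 without the libraries of conflicting label. Ssr1 also rose between consecutive times, by 0.37 ± 0.10 from 60 to 120 min (adjusted p = 0.0285) and by 0.41 ± 0.10 from 120 to 240 min (adjusted p = 0.0284). The first of these calls was lost without any 1 of 4 of the 6 libraries compared (0.26 without refed 120 min replicate 2, adjusted p = 0.17). The second was lost without refed 120 min replicate 1 or 3 or refed 240 min replicate 1 or 2 (0.33 to 0.38, adjusted p of 0.13 to 0.15) and without the libraries with pancreatic transcripts (0.30, adjusted p = 0.41). Ssr3, the gamma subunit and another holder of GCCACGT, was at 7638, 7630 and 7432 in fasted and 13963, 16366 and 10832 in refed 240 min livers, which did not overlap (0.84 ± 0.14, adjusted p = 8.75e-05). Ssr4, the delta subunit, was 0.34 ± 0.09 higher at 240 min (adjusted p = 0.00784).

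Of the 7 measured genes of the signal recognition particle and its receptor, 4 rose by 120 min and 6 by 240 min. Srprb, the receptor subunit anchored in the membrane (ENSMUSG00000032553, chr9:103188032-103202137, minus strand), was at 529, 501 and 487 in fasted livers. It was at 771, 617 and 666 at 60 min, at 842, 1034 and 823 at 120 min and at 1291, 1510 and 937 at 240 min of refeeding. Each refed group lay above the fasted one, and the log2 fold change rose from 0.43 ± 0.14 (adjusted p = 0.0455) to 0.82 ± 0.14 (adjusted p = 0.00023) and 1.27 ± 0.14 (adjusted p = 5.25e-07), a 2.42-fold level, or 1.46 on the log2 scale without the libraries of conflicting label. The call at 60 min was lost without any 1 of 5 of the 6 libraries compared, with adjusted p of 0.071 to 0.18. Of Srprb's stretches, 28.4% recur in Gm20425, which overlaps it.

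Its partner Srpr, the GTPase subunit and the member of highest level per kb, was not called. It was 0.09 ± 0.09 higher on the log2 scale at 120 min (adjusted p = 0.587) and 0.17 at 240 min (95% interval -0.02 to 0.37). Srp68, a scaffold subunit of the particle, was at 2568, 2485 and 2666 in fasted livers, at 3531, 3856 and 3604 at 120 min and at 4258, 4327 and 3806 at 240 min of refeeding. These groups were far apart for their spread, with log2 fold changes of 0.51 ± 0.06 (adjusted p = 9.46e-06) and 0.68 ± 0.06 (adjusted p = 9.15e-08), the latter 0.74 without the libraries of conflicting label. Srp19, which orders the particle's RNA during assembly, was at 689, 703 and 710 in fasted livers and at 890, 921 and 941 already at 60 min (log2 fold change 0.39 ± 0.08, adjusted p = 0.00286). At 240 min Srp19 stood at 1082, 1173 and 977 (0.62 ± 0.08, adjusted p = 1.02e-05, and 0.68 without the libraries of conflicting label).

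In signal peptidase, 3 of 5 genes rose by 120 min and 4 by 240 min. Spcs2, an accessory subunit (ENSMUSG00000035227, chr7:99837569-99863462, minus strand), was at 1540, 1656 and 1758 in fasted livers, 2333, 2863 and 2476 at 120 min and 3516, 3816 and 2647 at 240 min of refeeding. The refed libraries lay above the fasted ones at both times, with log2 fold changes of 0.63 ± 0.11 (adjusted p = 0.000278) and 0.99 ± 0.11 (adjusted p = 4.74e-07), or 1.15 without the libraries of conflicting label. Spcs1, another accessory subunit and a holder of GCCACGT, was at 1927 ± 24.1 (SD) in fasted and 1934 ± 186 in refed 240 min livers, a log2 fold change of 0.00 (95% interval -0.15 to 0.15).

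The catalytic subunit of signal peptidase comes from a pair of paralogs, Sec11a and Sec11c. Sec11c was at 729, 778 and 724 in fasted livers, 1049, 1614 and 1209 at 120 min and 1258, 1475 and 1059 at 240 min of refeeding. All refed libraries at these times lay above the fasted ones, and the log2 fold change was 0.77 ± 0.14 (adjusted p = 0.00064) and 0.75 ± 0.14 (adjusted p = 0.000433), the latter 0.87 without the libraries of conflicting label. Sec11a was at 1570, 1625 and 1641 in fasted livers, 1706, 1956 and 1739 at 120 min and 1971, 2253 and 1703 at 240 min. Its log2 fold change was 0.16 ± 0.09 (adjusted p = 0.293) and then 0.28 ± 0.09 (adjusted p = 0.0276), and 0.39 without the libraries of conflicting label. That call was lost without any 1 of 5 of the 6 libraries compared (log2 fold change 0.18 without refed 240 min replicate 2, adjusted p = 0.19) and kept without the one of conflicting label. Whether the paralogs differed from each other in response was not tested.

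Of the oligosaccharyltransferase genes, 2 of 7 rose by 120 min and 5 by 240 min. Ostc, the subunit that docks the enzyme to the translocon (ENSMUSG00000041084, chr3:130695912-130709444, minus strand), was at 1097, 1148 and 1049 in fasted livers. It was at 1597, 2217 and 1862 at 120 min and at 2618, 2983 and 2132 at 240 min of refeeding. The groups did not overlap, with log2 fold changes of 0.77 ± 0.13 (adjusted p = 0.000288) and 1.22 ± 0.13 (adjusted p = 5.41e-07), or 1.35 at 240 min without the libraries of conflicting label. Ddost, a non-catalytic subunit, was 0.37 ± 0.12 higher at 120 min (adjusted p = 0.0397) and 0.78 ± 0.12 at 240 min (adjusted p = 4.44e-05).

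The catalytic subunits Stt3a and Stt3b belong to enzyme forms that act during and after translocation, respectively. Stt3a was at 3453, 4004 and 3846 in fasted livers, 4401, 4979 and 4425 at 120 min and 6152, 7237 and 4865 at 240 min of refeeding. Its log2 fold change was 0.29 ± 0.12 at 120 min (adjusted p = 0.112) and 0.68 ± 0.12 at 240 min (adjusted p = 0.000199), or 0.83 without the libraries of conflicting label. Stt3b was at 5016, 5269 and 5406 in fasted livers, 6057, 5741 and 6347 at 120 min and 7024, 7312 and 5530 at 240 min. Its log2 fold change was 0.21 ± 0.08 (adjusted p = 0.073) and then 0.33 ± 0.08 (adjusted p = 0.00281), or 0.45 without the same libraries. Both lay above the fasted libraries at both times, and the difference between the paralogs was not tested.

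Rpn2 and Dad1, further subunits of the same complex, were not called against fasted livers at any refed time. Rpn2 was at 6449, 7019 and 6577 in fasted and 7889, 8859 and 6608 in refed 240 min livers, which overlap through the library of conflicting label. Its log2 fold change of 0.21 ± 0.08 (adjusted p = 0.0684) became 0.32 (adjusted p = 0.0054) without the libraries of conflicting label. At 60 min Rpn2 was the 1 member called lower in refed than in caged food livers, at 5890, 6598 and 6108 against 7583, 7859 and 7060 (log2 difference -0.28 ± 0.08, adjusted p = 0.0339). That call was lost without any 1 of 4 of the 6 libraries compared (adjusted p of 0.085 to 0.13) and under quantile normalization (-0.20, adjusted p = 0.13). Dad1 was 0.10 higher at 240 min (95% interval -0.07 to 0.28).

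**Figure D3:**
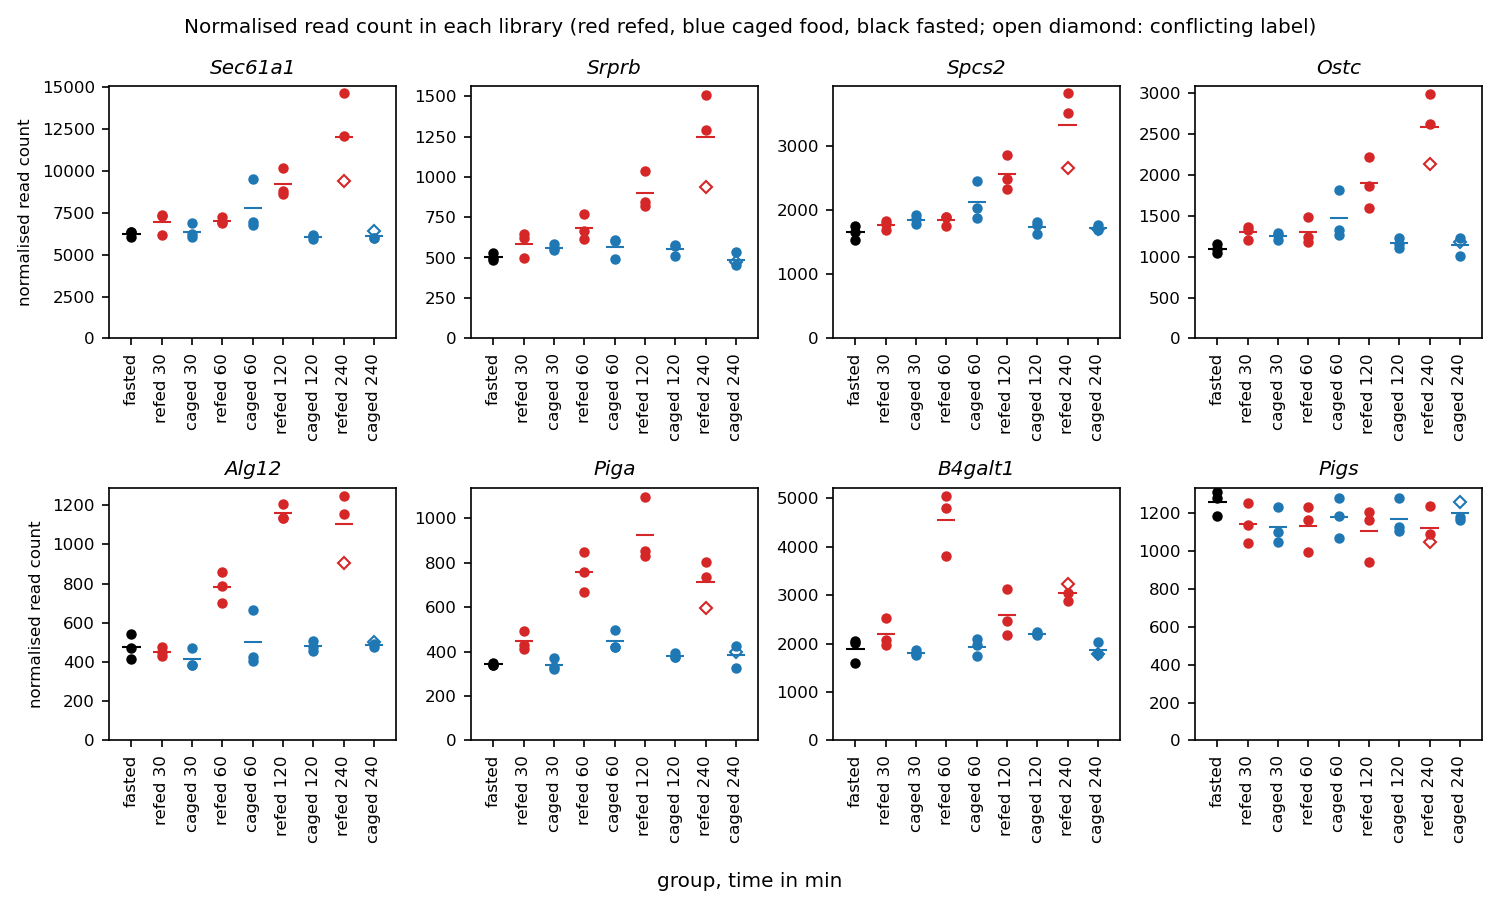
Normalised read count of 8 members in each of the 27 libraries, by group and time in min (black fasted, red refed, blue caged food, bars at the group means, open diamonds for the 2 libraries of conflicting label). Sec61a1, Srprb, Spcs2 and Ostc climb to 240 min, Alg12 and Piga are up by 60 min, B4galt1 peaks at 60 min with 3807 to 5041, and Pigs stays between 940 and 1312.

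The assembly line of the lipid-linked oligosaccharide did not move as a block: 3 of 13 genes rose by 120 min and 4 by 240 min, while Dpm1 fell. Alg12, the mannosyltransferase that adds a late mannose on the lumenal side and the member with the ER stress element shown above (ENSMUSG00000035845, chr15:88805244-88819318, minus strand), was at 416, 543 and 472 in fasted livers. It was at 452, 479 and 429 after 30 min, at 857, 790 and 699 after 60 min, at 1137, 1136 and 1206 after 120 min and at 1157, 1245 and 907 after 240 min of refeeding. The 30 min libraries fell within the fasted range and those from 60 min on lay above it. The log2 fold change was 0.72 ± 0.14 at 60 min (adjusted p = 0.00164), 1.29 ± 0.14 at 120 min (adjusted p = 2.82e-06) and 1.20 ± 0.14 at 240 min (adjusted p = 2.14e-06), or 1.34 without the libraries of conflicting label.

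Alg2, which adds early mannoses on the cytosolic side (ENSMUSG00000039740, chr4:47465067-47474333, minus strand), was at 696, 685 and 712 in fasted livers. It was at 1257, 1014 and 1211 at 60 min, at 1362, 1885 and 1494 at 120 min and at 1398, 1325 and 1300 at 240 min of refeeding. All of these lay above the fasted libraries, with log2 fold changes of 0.73 ± 0.11 (adjusted p = 5.43e-05), 1.16 ± 0.11 (adjusted p = 1.16e-07) and 0.94 ± 0.11 (adjusted p = 8.68e-07), the last 0.96 without the libraries of conflicting label. Its head-to-head neighbour Sec61b, picked for this comparison after the values were seen, was at 437, 408 and 420 in fasted livers and at 444, 520 and 507 at 60 min of refeeding (0.21 ± 0.16, adjusted p = 0.483). Sec61b was at 868, 1104 and 612 at 240 min, so its highest refed group was at 240 min and that of Alg2 at 120 min.

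**Figure D4:**
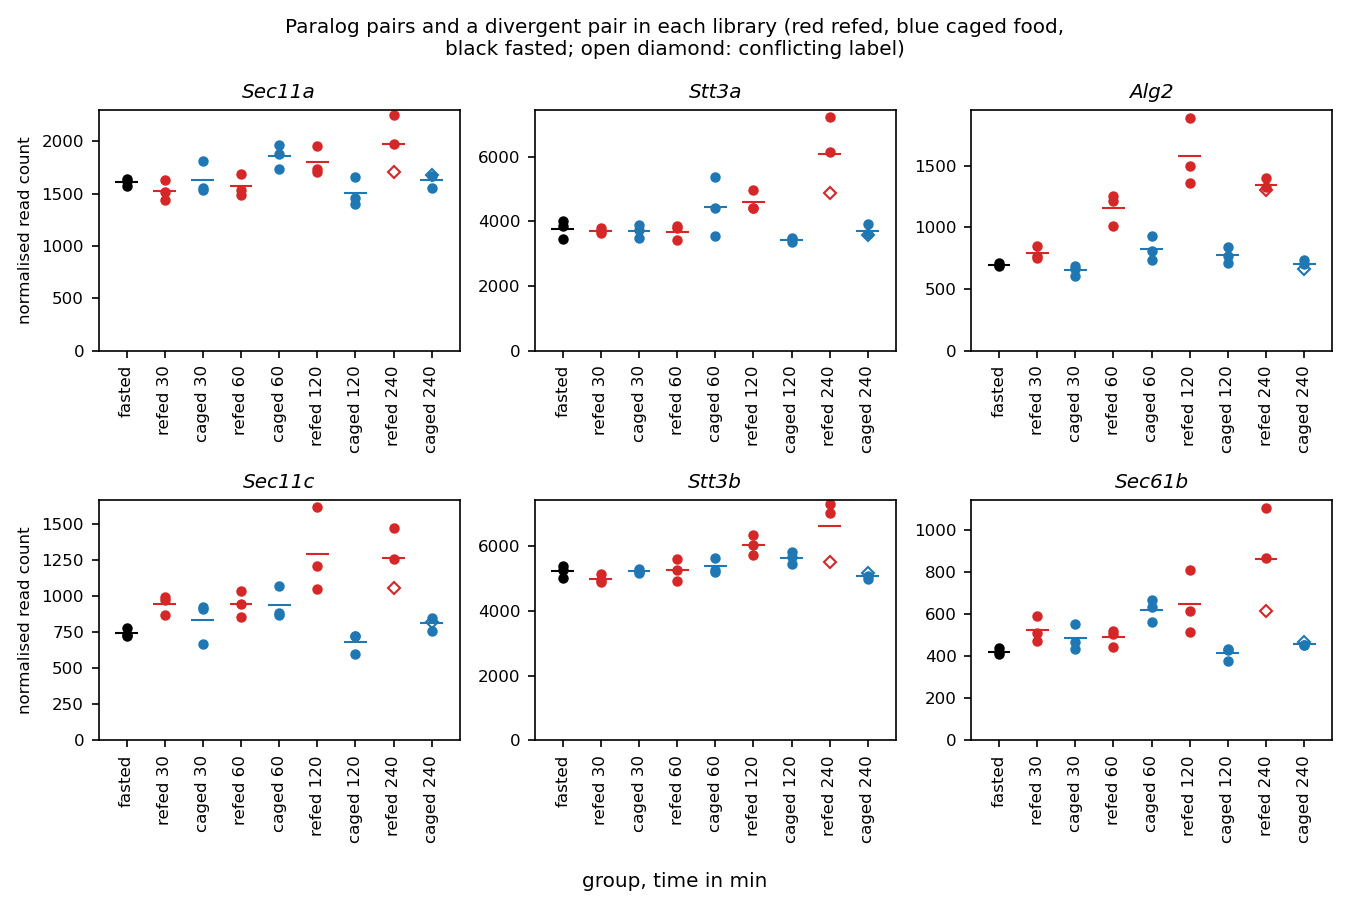
Normalised read count in each library for the paralogs Sec11a and Sec11c (left), Stt3a and Stt3b (middle) and the head-to-head neighbours Alg2 and Sec61b (right), by group and time in min, with bars at group means and open diamonds for the 2 libraries of conflicting label. Alg2 is up at 60 min of refeeding (1014 to 1257), when Sec61b is at 444 to 520.

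Alg8, a glucosyltransferase of the late steps, rose by 0.44 ± 0.13 at 120 min (adjusted p = 0.0191) and 0.70 ± 0.13 at 240 min (adjusted p = 0.000234). Dpagt1, the enzyme that starts the chain, was 0.50 ± 0.12 higher at 240 min (adjusted p = 0.00451). Dpm1, the catalytic subunit that makes the mannose donor dolichol phosphate mannose, was at 311, 353 and 337 in fasted and 236, 293 and 222 in refed 240 min livers. These groups did not overlap (log2 fold change -0.42 ± 0.11, adjusted p = 0.00743), but 37.7% of the stretches of Dpm1 recur in the overlapping gene Gm20716. The other 8 genes of the group (Alg1, Alg3, Alg5, Alg6, Alg9, Alg14, Dpm2 and Dpm3) were not called at any refed time.

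After transfer, glucosidases trim the glycan and Uggt1 puts a glucose back onto chains that are not yet folded. Uggt1 (ENSMUSG00000037470, chr1:36140027-36244720, minus strand) was at 2913, 3634 and 3147 in fasted livers, 3569, 4606 and 3911 at 120 min and 5302, 6279 and 4643 at 240 min of refeeding. The groups overlapped at 120 min (log2 fold change 0.32 ± 0.11, adjusted p = 0.056) and not at 240 min (0.74 ± 0.11, adjusted p = 3.04e-05, and 0.84 without the libraries of conflicting label). Mogs, glucosidase I, was 0.57 ± 0.11 higher at 240 min (adjusted p = 0.000369). Ganab and Prkcsh, the subunits of glucosidase II, were not called: their log2 fold changes at 240 min were 0.02 (95% interval -0.12 to 0.16) and -0.08 (-0.27 to 0.11).

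**Figure D5:**
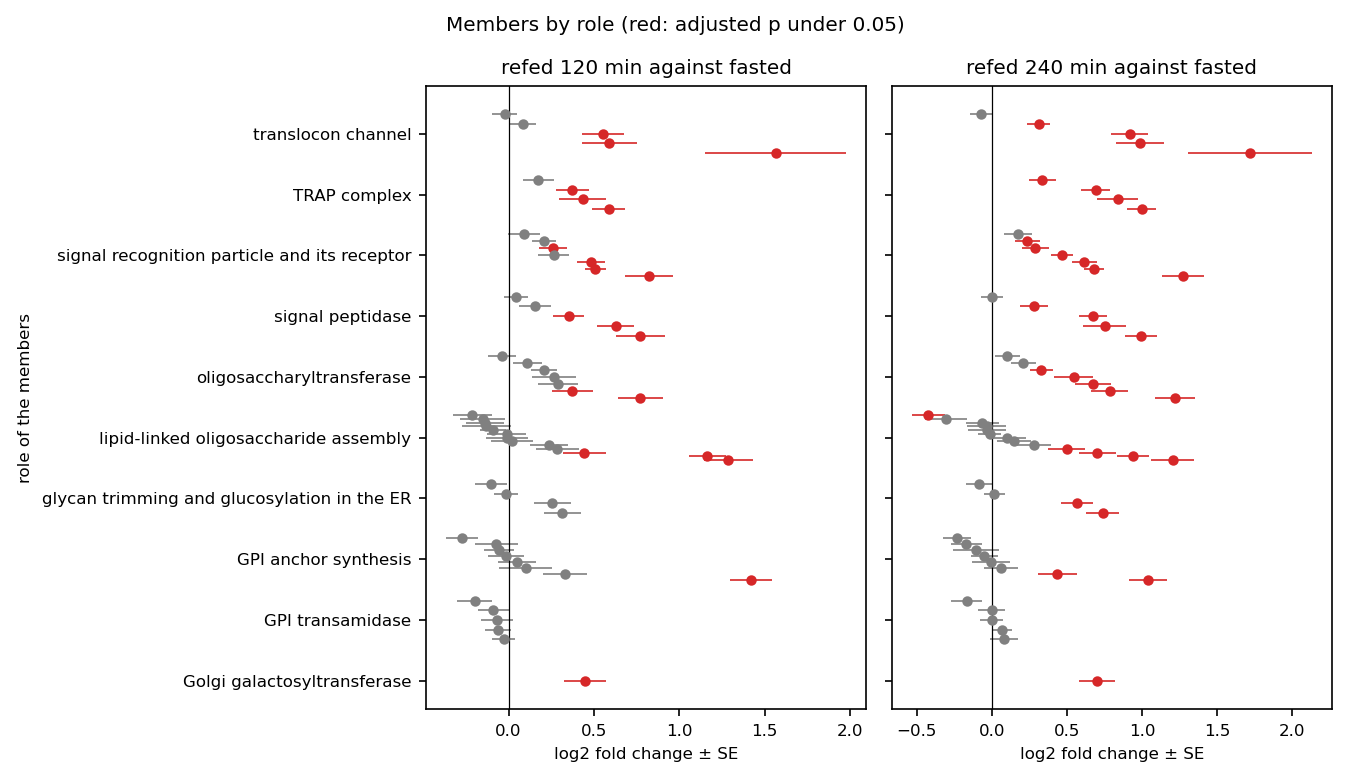
Log2 fold change ± SE of each of the 59 members against fasted liver at refed 120 min (left) and 240 min (right), by role, with red for an adjusted p under 0.05. The red points lie mainly in the upper 5 roles, and the 5 GPI transamidase genes lie between -0.20 and 0.08.

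In the GPI branch 2 of 13 genes were called higher at 240 min, a share close to the 12.9% of all genes. Piga (ENSMUSG00000031381, chrX:164419787-164433916, plus strand), the catalytic subunit of the first step of anchor synthesis, was at 348, 341 and 339 in fasted livers and at 412, 495 and 432 after 30 min of refeeding. It was at 670, 758 and 849 after 60 min, at 831, 1098 and 852 after 120 min and at 802, 735 and 597 after 240 min. Every refed library lay above the fasted ones, and the log2 fold change was 0.38 ± 0.12 at 30 min (adjusted p = 0.165), 1.14 ± 0.12 at 60 min (adjusted p = 2.11e-06), 1.42 ± 0.12 at 120 min (adjusted p = 7.73e-08, 2.68-fold) and 1.04 ± 0.12 at 240 min (adjusted p = 1.99e-06), the last 1.16 without the libraries of conflicting label.

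Other subunits of the same enzyme were also measured. Pigh was 0.44 ± 0.13 higher at 240 min (adjusted p = 0.0154), and Pigc was -0.27 ± 0.09 at 120 min (adjusted p = 0.0502) and -0.23 ± 0.09 at 240 min (adjusted p = 0.0726) against fasted livers. Against caged food livers Pigc was lower at 120 min (-0.29 ± 0.09, adjusted p = 0.0403) and at 240 min (-0.35 ± 0.09, adjusted p = 0.0069). Pigm, the first mannosyltransferase of the anchor, was also lower in refed than in caged food livers at 240 min (-0.36 ± 0.10, adjusted p = 0.0117).

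GPI transamidase, the complex of Pigk, Pigs, Pigt, Pigu and Gpaa1, had 0 of 5 genes called at every refed time. Pigs, at 1184, 1312 and 1277 in fasted livers, was at 1202, 940 and 1163 at 120 min and at 1088, 1234 and 1045 at 240 min of refeeding. The groups overlapped, and the log2 fold change at 240 min was -0.17 (95% interval -0.38 to 0.05). At 240 min the intervals were -0.07 to 0.21 for Pigk, -0.11 to 0.27 for Pigt, -0.19 to 0.19 for Pigu and -0.15 to 0.15 for Gpaa1.

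B4galt1, a Golgi galactosyltransferase that extends N-glycans (ENSMUSG00000028413, chr4:40804602-40854005, minus strand), was highest at the earliest of its called times. It was at 2059, 1593 and 2007 in fasted livers, 2070, 2526 and 1975 after 30 min, 3807, 4795 and 5041 after 60 min, 2184, 3119 and 2458 after 120 min and 3046, 2881 and 3223 after 240 min of refeeding. The 60 min libraries were above all others of the fasted and refed groups. The log2 fold change against fasted was 1.27 ± 0.12 at 60 min (adjusted p = 4.87e-07), 0.45 ± 0.12 at 120 min (adjusted p = 0.0152) and 0.70 ± 0.12 at 240 min (adjusted p = 0.000185), the last 0.66 without the libraries of conflicting label. Between 60 and 120 min of refeeding B4galt1 fell by 0.82 on the log2 scale (adjusted p = 0.000267). The call at 120 min was lost without refed 120 min replicate 2 (0.31, adjusted p = 0.12) or fasted replicate 2 (0.33, adjusted p = 0.12).

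Consecutive refed times were also compared, and neighbouring steps share the libraries of 1 time. From 30 to 60 min 4 members rose, Alg2, Alg12, Piga and B4galt1, with 3.38% of all genes called higher and 2.45% lower. From 60 to 120 min 6 rose (Ssr1, Srp68, Spcs2, Ostc, Alg2 and Alg12, against 2.17% of all genes) and 2 fell (B4galt1 and Dpm1, against 2.54%). From 120 to 240 min 2 rose, Ssr1 and Uggt1 (0.86% of all genes, with 0.904% lower). Without the libraries of conflicting label 16 members were called in that last step, among them Sec61a1 (0.53, adjusted p = 0.021) and Srprb (0.64, adjusted p = 0.015), and without those with pancreatic transcripts 0 were. Over all genes 315 of 15863 and 36 of 15819 were called in these fits, against 281 of 15932 with all libraries. The rise of Uggt1 (0.42 ± 0.11, adjusted p = 0.0478) was lost without the same 4 single libraries as that of Ssr1 (0.31 to 0.43, adjusted p of 0.13 to 0.23).

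Caged food gave no called member at any time. Against fasted livers the counts were 0 of 59 at 30, 60, 120 and 240 min (limma), with 1, 15, 1 and 3 members at an unadjusted p under 0.05, and 0.0126%, 0.22%, 0.0377% and 0% of all genes were called. The share of all genes at that unadjusted threshold is not given here, so the 1, 15, 1 and 3 members are not read as a result. At 60 min 50 of 59 members had a positive log2 fold change, as did 8338 of 15932 genes, and 23 had all 3 libraries above the fasted ones (7.73% of all genes did). The median was 0.10 and the highest value was that of Sec61b, 0.55 ± 0.16 (adjusted p = 0.187).

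One library weighed on these 60 min values. Sec61a1 was at 6974, 9543 and 6804 in the caged food 60 min livers, and the second of them, which stood apart on the second principal component, was the highest. The log2 fold change of Sec61a1 against fasted fell from 0.30 to 0.14 without it, that of Ostc from 0.40 to 0.24 and that of Spcs2 from 0.35 to 0.24. In that library the summed level of 10 Kupffer cell markers was 45547, against 16742 and 19422 in its group, and the part of this in the members' values was not tested.

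Refed and caged food livers of the same time were also compared directly. At 30 min 0 members were called, with 0.276% of all genes called. At 60 min 6 were higher in refed livers (Sec61g, Srp19, Alg2, Alg12, Piga and B4galt1, against 6.73% of all genes) and Rpn2 was lower (4.18% of all genes were called lower). At 120 min 22 were higher and 1 lower (5.98% of all genes were called higher and 5.3% lower), and at 240 min 33 were higher and 3 lower (14.6% and 12.4%). The 3 lower ones at 240 min were Dpm1 (-0.51 ± 0.11, adjusted p = 0.00146), Pigc and Pigm. At 240 min the difference was 0.95 ± 0.12 for Sec61a1 (adjusted p = 4.37e-06), 1.33 ± 0.14 for Srprb (adjusted p = 2.55e-07) and 1.17 ± 0.13 for Ostc (adjusted p = 8.43e-07). Without the 2 libraries of conflicting label 39 members were called at 240 min, and grouped by the treatment label 0 were. Over all genes 3132 of 15863 and 1 of 15932 were called in these 240 min comparisons. Without those 2 libraries the differences at 240 min were 1.15 for Sec61a1, 1.5 for Srprb and 1.33 for Ostc. The refed minus caged food difference changed with time, by a limma F test, in 27 of 59 members and in 9.97% of all genes.

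Within the refed groups the libraries kept an order. At 240 min replicate 3, the library of conflicting label, was the lowest of its group for 31 of the 32 members called higher, and replicate 2 was the highest for 25. How often other genes kept such an order is not given here, so it is not read as particular to the members. At 120 min replicate 2 was the highest for 18 of the 20 called members, and without it 12 were called against fasted. Over all genes 1555 of 15907 were called without that library and 2243 of 15932 with it. Derl3, a gene of ER-associated degradation that had been listed among 10 plasma and B cell markers and was picked out after its values were seen, was at 781, 1753 and 121 in the refed 240 min libraries. It was at 181, 808 and 462 in the refed 120 min ones and at 147, 133 and 65 in the fasted ones. Derl3 was also at 315, 365 and 117 at refed 30 min, when 0 members were called, and at 74, 562 and 150 at caged food 60 min. In the remaining groups it was at 45 to 164. The other 9 markers of that list summed to 508 to 666 at refed 240 min, 559 to 675 at refed 120 min and 692 to 790 in fasted livers, so this sum was lower in all of these refed libraries than in the fasted ones. Other marker sums also differed between refed 240 min and fasted livers without overlap. The 8 stellate cell markers summed to 16477 to 20884 against 23369 to 25344, the 10 sinusoidal endothelial markers to 21229 to 22024 against 23429 to 27515, and the 8 leukocyte markers to 5348 to 5624 against 4692 to 5088. The stellate sum also lay below the fasted range at refed 30 min (17876 to 23320) and 120 min (18005 to 22450). It did so at caged food 120 min too (20037 to 22547), and overlapped the fasted range in the remaining groups. Kupffer cell, cholangiocyte and hepatocyte sums of refed 240 min and fasted livers overlapped, and the part of these markers in the members' values was not tested. Acinar markers summed to 394 to 497 at refed 240 min, and without the libraries with pancreatic transcripts 17 members were called at 120 min and 28 at 240 min against fasted. Over all genes 1614 and 2315 of 15819 were then called, against 2243 and 3879 of 15932 with all libraries.

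The wider pathway was covered by 81 further genes, of which 75 met the value minimum. Their counts stand beside 7.95% of all genes called higher and 6.13% lower at 120 min, and 12.9% and 11.4% at 240 min. Of the other oligosaccharyltransferase subunits, 3 of 5 rose by 120 min and 4 by 240 min. Magt1, the oxidoreductase subunit of the STT3B form, was at 2382, 2651 and 2446 in fasted livers, 3533, 4610 and 4008 at 120 min and 5947, 4886 and 4797 at 240 min of refeeding. The groups did not overlap, with log2 fold changes of 0.69 ± 0.10 (adjusted p = 3.49e-05) and 1.06 ± 0.10 (adjusted p = 6.75e-08). Ost4 and Tmem258, small subunits, were 0.51 ± 0.12 (adjusted p = 0.0035) and 0.40 ± 0.13 (adjusted p = 0.0362) higher at 120 min.

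Genes that supply sugar nucleotides and dolichol rose in 4 of 20 cases by 120 min and in 8 by 240 min, when 2 fell. Gmppb, which makes GDP-mannose, was at 485, 525 and 481 in fasted livers, 975, 1487 and 1197 at 120 min and 1482, 1943 and 1164 at 240 min of refeeding. Its log2 fold change was 1.27 ± 0.15 (adjusted p = 4.22e-06) and 1.59 ± 0.15 (adjusted p = 9.49e-08), a 3.01-fold level. Gfpt1, the first enzyme of hexosamine synthesis, was at 904, 1084 and 952 in fasted livers, 1732, 2630 and 2052 at 120 min and 2961, 2785 and 2299 at 240 min. Its log2 fold change was 1.11 ± 0.14 (adjusted p = 8.56e-06) and 1.45 ± 0.14 (adjusted p = 1.01e-07). Nus1, a subunit of the enzyme that makes the dolichol chain, was 0.46 ± 0.08 higher at 120 min (adjusted p = 0.000178).

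Of 19 other translocon and ER insertion genes, 4 rose and 1 fell by 120 min, and 5 rose and 1 fell by 240 min, the 1 that fell being no larger a share than among all genes. Serp1, which stabilises membrane proteins at the translocon, was 0.51 ± 0.12 higher at 120 min (adjusted p = 0.00538) and 0.99 ± 0.12 at 240 min (adjusted p = 2.83e-06). Srp54b, one of the copies that share sequence with Srp54a, was 0.39 ± 0.11 higher at 120 min (adjusted p = 0.0241). Tram2, a translocon-associated protein, was at 1537, 1351 and 1353 in fasted livers, 1228, 870 and 995 at 120 min and 692, 962 and 753 at 240 min of refeeding. These groups did not overlap, and the log2 fold change was -0.47 ± 0.12 (adjusted p = 0.00791) and -0.83 ± 0.12 (adjusted p = 1.56e-05).

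Of 12 other GPI anchor genes 0 rose and 1 fell by 120 min, Pigl, the deacetylase that follows Piga (-0.32 ± 0.11, adjusted p = 0.0461), and 3 fell by 240 min. Of 19 Golgi N-glycan genes 4 rose by 120 min, and 4 rose and 2 fell by 240 min, the 2 that fell being no larger a share than among all genes. Mgat2, which starts the second antenna, was 0.55 ± 0.09 higher at 120 min (adjusted p = 0.000249). B4galt5 was 0.80 ± 0.16 higher (adjusted p = 0.00172) and B4galt7, which acts on proteoglycan linkers and not on N-glycans, 0.40 ± 0.08 (adjusted p = 0.000823).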

How the data were processed

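Liver RNA was made into stranded mRNA libraries. Per the submitters' processing notes, reads were aligned to mm10 (GRCm38) with STAR 2.4.0a and assigned to genes with featureCounts 1.4.5-p1 (Subread). The deposited values are a score: read counts that the authors normalised by library and rounded to whole numbers, by a scaling method not given in the sources used here. Depth was estimated from the spacing of low values. The series text speaks of 60 samples, and those beyond these 27 were not analysed here.

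Genes with a value of 10 or more in 3 or more libraries were tested on log2(value + 1), so fold changes of low genes are understated. limma 3.58.1 (R 4.3.3, mean-variance trend) was fitted to 9 group means, with 18 residual degrees of freedom before moderation, and p-values were adjusted by Benjamini-Hochberg within each of 15 comparisons. The fit was tested on simulated data. Medians and counts of lists carry no set test. Coordinates are from GENCODE M21, to which 45143 of 45706 gene identifiers matched. Comparisons with fasted livers share the same 3 fasted libraries.

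Members and lists were chosen with earlier results of these data known. Values per library are given for the members of lowest p and of largest change in each role at refed 120 and 240 min, for every member called at 30 or 60 min, for the pairs Sec11a with Sec11c and Stt3a with Stt3b, and per further list up to 3 called genes of lowest p at refed 120 min. Members outside this rule are described briefly after their values were seen. The fit was repeated with a replicate block, with a pseudocount of 5, after quantile normalization, with no filter on low values, in only the groups compared, with single replicates left out, and with the 2 libraries of conflicting label left out or regrouped. Leaving out the libraries with pancreatic transcripts or apart on the second component was chosen after seeing the data.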

Additional observations from a re-analysis of the deposited data

Results flagged for a closer look

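For 16 of the 19 members named by the rule for values per library, the refed minus caged food difference changed over time by the limma F test (60, 120 and 240 min against 30 min, adjusted over all 15932 genes tested). Most of these 19 were named for a low p or a large change in the same refed libraries, so the choice itself favours a high share. Without that choice, 27 of the 59 members and 9.97% of all genes passed. In the entry machinery the adjusted p was 0.000859 for Sec61a1, 0.000225 for Ssr1, 2.99e-05 for Srp68 and 0.000594 for Srprb. In signal peptidase it was 8.4e-05 for Spcs2, 0.0183 for Sec11a and 0.0155 for Sec11c. In oligosaccharyltransferase it was 0.00689 for Rpn2, 0.0022 for Stt3a, 0.0304 for Stt3b and 0.000172 for Ostc. In glycan assembly, trimming and the remaining roles it was 0.00383 for Alg2, 0.00205 for Alg12, 0.0017 for Uggt1, 0.0114 for Piga and 0.00109 for B4galt1. The other 3 of the 19, Sec61g, Srp19 and Pigs, did not pass. Of the members described in addition, Sec61b (0.00412), Ssr3 (0.0251), Ddost (0.000447), Alg8 (0.00552), Dpagt1 (0.0185), Dpm1 (0.00417) and Mogs (0.00455) passed the same test. Sec62, Sec63, Ssr4, Srpr, Spcs1, Dad1, Ganab and Prkcsh did not pass (adjusted p of 0.104 to 0.842). Neither did Pigh, Pigc, Pigm, Pigk, Pigt, Pigu and Gpaa1 (0.134 to 0.601). The refed minus caged food difference of Rpn2 was -0.28 at 60 min, where it was called, and 0.34 at 240 min.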

How the results depend on the processing

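The result most open to doubt rests on the labels. Grouped by the treatment label in place of the title, which moves 2 libraries, the members called against fasted were 3 at 60 min, 6 at 120 min and 0 at 240 min of refeeding. In refed against caged food livers they were 2, 4 and 0 at these times, in the refed steps 1, 1 and 0, and in the test over time 0. Calls over all 15932 genes fell as well, from 1754, 2243 and 3879 against fasted to 901, 768 and 0. Against caged food they fell from 1738, 1797 and 4303 to 908, 376 and 1, and in the test over time from 1588 to 43. This regrouping mixes libraries of unlike profile (the score in the report), which also widens the spread shared by all groups. In a fit of only the groups compared, 1 member was called in refed 30 min against fasted, 2 in refed against caged food at 60 min, 4 from 60 to 120 min and 0 from 120 to 240 min. Over all genes these fits called 392, 478, 283 and 59, against 260, 1738, 750 and 281 in the fit of all groups. The step from 120 to 240 min, with 2 members called, gave 1 under quantile normalization, 1 without the filter, 16 without the libraries of conflicting label, 0 without those with pancreatic transcripts and 6 without those apart on the second component. Over all genes this step had 281 called, and 305, 206, 315, 36 and 493 in the same order of settings. The step from 60 to 120 min, with 8 members called, gave 12 without the libraries of conflicting label and 12 without those apart on the second component. Over all genes it had 750 called, and 729 and 940 in these settings.

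With each replicate left out in turn, the members called ranged from 5 to 7 at refed 60 min, 12 to 19 at 120 min and 29 to 34 at 240 min against fasted. In refed against caged food livers they ranged from 4 to 8 at 60 min, 14 to 21 at 120 min and 29 to 39 at 240 min. In the refed steps they were 4 to 4, 2 to 8 and 0 to 18, and in the test over time 25 to 30. The lowest counts at 120 min (12, 14 and 2) came without refed 120 min replicate 2, the lowest at 60 min against caged food (4) without refed 60 min replicate 3, and that of the last step (0) without refed 120 min replicate 1. Calls over all genes fell in these fits too. Without refed 120 min replicate 2 they went from 2243 to 1555 against fasted and from 1797 to 1112 against caged food. In the step from 60 to 120 min they went from 750 to 501. At 60 min against caged food they went from 1738 to 1431, and in the last step from 281 to 121. With any replicate left out, the member counts stayed at 0 for every caged food time and for both comparisons of refed 30 min livers.

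Of 89 called values of the members named, 15 were kept under every alternative and 0 changed sign. The alternatives include the grouping by treatment label, under which 0 of all 15932 genes were called at refed 240 min against fasted. No value of that comparison could therefore be among the 15, and the count does not measure how steady those values were otherwise. Replicate numbers were not taken to pair libraries: over 108 same-numbered pairs the mean correlation of residuals was -0.00944, and 7 pairs exceeded 0.1. With a replicate block 22 members were called at refed 120 min and 35 at refed 240 min against fasted livers, and 36 at 240 min against caged food livers. Without it the counts were 20, 33 and 36. Over all genes 2109, 3711 and 4154 were called with the block and 2243, 3879 and 4303 without it. Depth limits Sec61g, and shared sequence limits the 10 members with over 5% of stretches found in other genes.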
